A study of Mus musculus with 105 samples.

Results

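The 10 genes described here encode centromere proteins: Cenpa, Cenpl, Cenpn, Cenph, Cenpi, Cenpk, Cenpm, Cenpo, Cenpq and Cenpx. They were taken by name from the 20756 genes of the footprint and mRNA tables, and all 10 also have a row in the table of poly(A) tail lengths, which names 20603 genes. The choice of genes rested in part on Btg4 KO footprints, in which Cenpq and Cenpx had been seen to move in opposite directions. KO footprints of the 10 genes, and ratios made from them, are therefore given as values with no test, and the mRNA of Cenpq and Cenpx is given in the same way.

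The study measured ribosome-protected fragments (Ribo-seq footprints, the pieces of mRNA covered by translating ribosomes), mRNA with a poly(A) tail (Smart-seq2) and the length of that tail in mouse oocytes. Its labels list 105 samples, of which 53 have a column in the tables used here. Wild-type single oocytes gave footprints at the full-grown stage (FGO, 18 oocytes, arrested in meiotic prophase) and at metaphase of the second meiotic division (MII, 20 oocytes). MII oocytes labelled Btg4 Het and Btg4 KO gave footprints (3 libraries a genotype) and mRNA (2 libraries a genotype). Tail lengths came from 1 wild-type FGO library, 1 wild-type MII library, 1 Btg4 Het MII library and 2 Btg4 KO MII libraries. Btg4 is an adaptor that brings the CCR4-NOT deadenylase to maternal mRNAs during meiotic maturation. The comparison groups for Btg4 are heterozygous, not wild type, and how the KO allele was built was not given in the sources used here. Oocytes came from C57BL/6 females 8 or 5 weeks old, and the labels' protocols name PMSG and hCG at 5 IU. Every sample used here carries both ages and PMSG, so no age is assigned to a stage, and hCG is not assigned to a stage here either. No animal is named for any library, so each single-oocyte stage counts as 1 sample and has no test, and p-values in the Btg4 libraries measure only the spread between libraries.

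A centromere is marked by nucleosomes that carry the histone H3 variant CENP-A. On these nucleosomes sits the constitutive centromere-associated network, an assembly of CENP modules that anchors the outer kinetochore, which in turn holds spindle microtubules. In full-grown and maturing oocytes transcription is silent, so the level of each protein depends on stored mRNA, on its poly(A) tail and on its translation. Among the 10 genes, Cenpa encodes the histone variant itself, Cenpn a subunit that reads the CENP-A nucleosome, and Cenpl the partner of CENP-N. Cenph, Cenpi, Cenpk and Cenpm encode the subunits of another module. Cenpo and Cenpq belong to the module that also contains CENP-P and CENP-U, and Cenpx encodes a histone-fold subunit that works with CENP-S both at centromeres and with the DNA translocase FANCM.

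The sequences before the RefSeq start sites of Cenpq and Cenpx are shown because these genes stood at opposite ends of the KO footprints, and a CCAAT box is a frequent element of promoters of cell division genes. Both windows hold the 250 bases before the start, read 5′ to 3′ on the minus strand of GRCm38.p6, and capitals mark CCAAT on either strand (ATTGG where it lies on the other). The Cenpq window is chr17:40934575-40934824 and the Cenpx window is chr11:120713809-120714058.
Cenpq: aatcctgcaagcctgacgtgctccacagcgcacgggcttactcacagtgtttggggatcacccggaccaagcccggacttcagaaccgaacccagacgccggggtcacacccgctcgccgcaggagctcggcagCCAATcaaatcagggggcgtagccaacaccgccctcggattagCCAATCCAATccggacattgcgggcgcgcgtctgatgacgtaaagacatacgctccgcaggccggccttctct
Cenpx: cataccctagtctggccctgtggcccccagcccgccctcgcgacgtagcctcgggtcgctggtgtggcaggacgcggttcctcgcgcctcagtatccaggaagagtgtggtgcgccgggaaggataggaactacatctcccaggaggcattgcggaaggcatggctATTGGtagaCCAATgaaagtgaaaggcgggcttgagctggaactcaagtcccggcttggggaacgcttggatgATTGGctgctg
Each of these windows held 3 CCAAT sites, so the motif did not separate the pair in these windows. The window of Cenpx comes from 1 of 2 listed start sites and that of Cenpk from 1 of 3, and the other starts were not searched. At least 1 CCAAT site lay in the windows of 7 of the 10 genes, against 34.5% of 27025 promoters of the same length, and the exceptions were Cenph, Cenpi and Cenpo. The CHR element (TTTGAA on either strand) was in the windows of 2 genes against 16.3% of promoters. The core of an E2F site (searched as TTCCCGC on either strand) was in 2 against 3.84%. No transcription was measured in these oocytes, and a match of letters describes the sequence only.

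Oocyte markers, among them Zp3, Gdf9 and Ddx4, were detected in full in every footprint and mRNA group (8 of 8 genes). Follicle cell markers summed to 0 to 84.2 FPKM (fragments scaled for transcript length and for the library's total) in FGO oocytes and to 1.13 to 39.3 FPKM in MII oocytes. Of the 10 genes, 9 were above 0 in at least 1 FGO oocyte and 7 in at least 1 MII oocyte. Those at 0 throughout were Has2 in FGO oocytes and Fshr, Has2 and Tnfaip6 in MII oocytes. In Btg4 footprints these markers summed to 15.8 to 60.6 FPKM in Het and to 29.7 to 59.3 FPKM in KO. Blood markers summed to 0 to 527 FPKM in FGO and to 0 to 90.2 FPKM in MII oocytes, and values without the oocytes that list hemoglobin are given with the stage ratios. Depth, relative to the first Btg4 Het footprint library at 1.0, ran from 0.551 to 2.38 in FGO oocytes and from 0.222 to 0.867 in MII oocytes, so a value of 0 is easier to obtain in MII oocytes. Whole reads could be recovered from the FPKM steps for 6 of the 10 genes, with a tolerance of 0.08 reads. The Btg4 gene itself had 6496 ± 456 FPKM of footprints in Het and 1008 ± 125 FPKM in KO (SD, n = 3 each), with a log2 difference of -2.69 (SE 0.23, limma adjusted p = 0.00654). Its mRNA was 4033 ± 1048 FPKM in Het and 2050 ± 417 FPKM in KO (SD, n = 2 each), a log2 difference of -0.97 (SE 0.35, limma adjusted p = 0.0889), and every KO library lay below every Het library in both assays.

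From FGO to MII, footprints of 4 of the 10 genes were higher by a log2 ratio of 1 or more (Cenpn, Cenpa, Cenpo and Cenph), those of 4 were lower by as much (Cenpm, Cenpk, Cenpq and Cenpx), and Cenpl and Cenpi lay between. Ratios are log2 of (mean MII FPKM + 1) over (mean FGO FPKM + 1), which understates the change of low genes. Among the 8788 genes that averaged 1 FPKM or more over all oocytes, 27.9% were at a ratio of 1 or more and 31.3% at -1 or less, with a median of -0.15, and all of the 10 but Cenpi reached that level. The split of the 10 genes is thus near that of all genes in both directions. Genes of 1 module did not stay together: Cenph was higher at MII while Cenpk and Cenpm of the same module were lower, and Cenpo and Cenpq parted in the same way.

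Cenpa footprints ran from 0 to 69.7 FPKM in FGO oocytes with a median of 13.9, and from 0 to 402 FPKM in MII oocytes with a median of 94.2. The log2 ratio for the histone variant was 2.80, and 13 of 20 MII oocytes lay above the highest FGO oocyte. For Cenpn the FGO oocytes spanned 0 to 63.3 FPKM with a median of 7.79, and the MII oocytes spanned 45.0 to 385 FPKM with a median of 164. Its log2 ratio of 3.30 was the highest of the 10, and 18 of 20 MII oocytes exceeded every FGO oocyte. Cenpl, the partner of Cenpn, had few reads at either stage, 9 in all FGO oocytes and 12 in all MII oocytes. It was detected in 6 FGO oocytes, up to 3.31 FPKM, and in 5 MII oocytes, up to 15.4 FPKM. The log2 ratio of 0.97 became 0.61 without MII oocyte 4, so no order of the stages can be read for this subunit.

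In the module of Cenph, Cenpi, Cenpk and Cenpm the genes went different ways. Cenph spanned 5.82 to 70.8 FPKM (median 21.2) in FGO and 15.5 to 357 FPKM (median 114) in MII oocytes, and it was the only one of the 10 above 0 in all 38 oocytes. Its log2 ratio was 2.31, with 15 of 20 MII oocytes above the FGO range. Cenpi, at 17 reads in all FGO and 12 in all MII oocytes, was too low for a comparison: its ratio of 0.15 became -0.01 without MII oocyte 5. Cenpk was above 0 in 17 of 18 FGO oocytes (0 to 53.9 FPKM, median 6.12) and in 7 of 20 MII oocytes (0 to 17.9 FPKM, median 0), with a log2 ratio of -1.61. Cenpm, a subunit with a small-GTPase-like fold, was above 0 in 17 of 18 FGO oocytes (0 to 146 FPKM, median 33.1) and in 6 of 20 MII oocytes (0 to 36.0 FPKM, median 0). Its ratio of -2.57 was the lowest of the 10, and 9 FGO oocytes exceeded every MII oocyte.

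Cenpo and Cenpq, 2 subunits of 1 module, also differed. Cenpo ran from 0 to 20.4 FPKM (median 3.20) in FGO and from 0 to 90.0 FPKM (median 34.0) in MII oocytes, a log2 ratio of 2.55 with 14 of 20 MII oocytes above the FGO range. Cenpq ran from 0 to 46.0 FPKM (median 15.7) in FGO oocytes, where 15 of 18 were above 0, and from 0 to 58.5 FPKM (median 0) in MII oocytes, where 5 of 20 were. Its 193 reads over FGO oocytes stood against 18 over MII oocytes, and its ratio of -1.37 became -2.09 without MII oocyte 18. Cenpx had the highest FGO level of the 10, 0 to 518 FPKM with a median of 127, and 17 of 18 oocytes above 0. In MII oocytes it ran from 0 to 326 FPKM with a median of 0 and 9 of 20 oocytes above 0, a ratio of -1.28. Reads behind Cenpx were 143 in FGO and 25 in MII oocytes. The FGO and MII ranges overlapped for all 10 genes. Without oocytes that list a hemoglobin gene (9 FGO and 19 MII oocytes left) the 4 higher ratios ran from 2.62 to 3.48 and the 4 lower from -2.74 to -0.98, the last that of Cenpq. When oocytes were scaled to a common median the median of all genes moved from -0.15 to -0.95, the 4 higher ratios then ran from 1.29 to 2.40 and the 4 lower from -3.30 to -2.25, and the sign of Cenpi turned (-0.60).

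**Figure D1:**
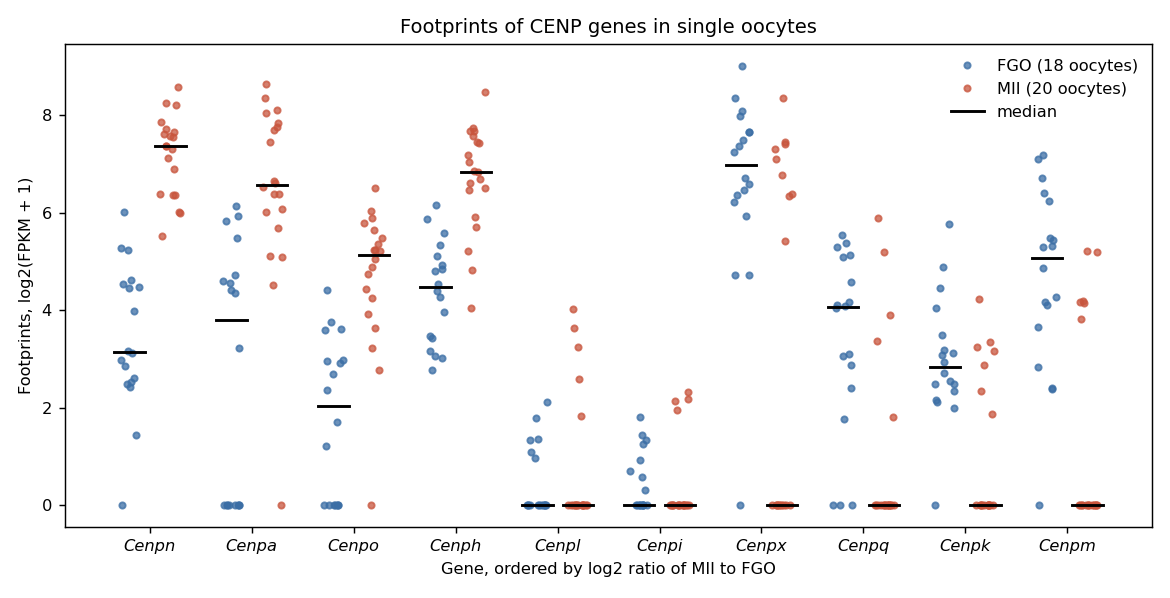
Footprints of the 10 genes in single oocytes, as log2(FPKM + 1) on the vertical axis, with genes ordered along the horizontal axis by their log2 ratio of MII to FGO. Each point is 1 oocyte (18 FGO in blue, 20 MII in red) and bars mark medians. The MII median is far above the FGO median for Cenpn, Cenpa, Cenpo and Cenph, and it is 0 for Cenpx, Cenpq, Cenpk and Cenpm.

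In mRNA of Btg4 KO MII oocytes, 3 of the 8 genes that could be tested rose against Het: Cenpm, Cenpl and Cenpk. None fell by limma, and at an unadjusted p below 0.05 the counts were 4 higher and 0 lower. Over all 8865 genes tested, 18.9% rose and 0.62% fell, with a median log2 difference of 0.14, so rises were common in this contrast.

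Cenpm mRNA gave 6.01 and 5.22 FPKM in Het oocytes and 58.7 and 76.6 FPKM in KO oocytes, a log2 difference of 3.36 on the log2(FPKM + 1) scale (SE 0.33, limma adjusted p = 0.000677). Cenpl mRNA stood at 1.29 and 0.754 FPKM in Het and at 12.0 and 16.5 FPKM in KO, a log2 difference of 2.91 (SE 0.37, limma adjusted p = 0.00164). Both KO libraries lay far above both Het libraries for these genes. Cenpk mRNA measured 15.7 and 28.0 FPKM in Het and 60.9 and 94.5 FPKM in KO, a log2 difference of 1.80 (SE 0.38, limma adjusted p = 0.0135). This call was lost when libraries were scaled to a common median (adjusted p = 0.0511), with no filter on low genes (0.0886) and without KO mRNA replicate 2 (0.0532).

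The other 5 tested genes missed the threshold. Cenpo had 33.4 and 43.4 FPKM in Het and 64.5 and 61.6 FPKM in KO (log2 difference 0.71, SE 0.30, limma adjusted p = 0.143). The genes with the highest mRNA levels pointed the other way. Cenpn had 366 and 577 FPKM in Het and 263 and 328 FPKM in KO (log2 difference -0.64, SE 0.33, limma adjusted p = 0.211). Cenph had 204 and 272 FPKM in Het and 126 and 167 FPKM in KO (log2 difference -0.70, SE 0.31, limma adjusted p = 0.158). For Cenpa the libraries gave 110.4 and 103 FPKM in Het and 83.1 and 63.3 FPKM in KO (log2 difference -0.55, SE 0.30, limma adjusted p = 0.233). Cenpi, at 6.24 and 6.11 FPKM in Het and 4.92 and 3.72 FPKM in KO, had a log2 difference of -0.44 (SE 0.35, limma adjusted p = 0.406). KO libraries were below both Het libraries for all 4 of these genes, a pattern shown by 22.0% of all genes tested, and 38.9% showed the opposite one.

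Cenpq mRNA was 6.78 and 11.3 FPKM in Het and 74.1 and 122 FPKM in KO, a log2 difference of 3.30, close to that of Cenpm. Cenpx mRNA was 66.7 and 138 FPKM in Het and 49.1 and 142 FPKM in KO, a log2 difference of -0.20. The Cenpx groups overlapped, and its sign turned positive without Het replicate 2 (0.32) or without KO replicate 1 (0.56). The pair therefore differed in mRNA as well, with Cenpq far higher in KO and Cenpx within its own spread.

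Footprints in the same genotypes, described only, showed 2 genes with every KO library above every Het library (Cenpk and Cenpq), 2 with every KO library below (Cenpn and Cenpx) and 6 whose groups overlapped. Over all 8526 genes, 16.8% had every KO library above and 7.69% every KO library below, the limma test called 3.21% higher and 0.328% lower, and the median log2 difference was 0.27. Since the genes were chosen on this contrast, their counts carry no weight beside those shares.

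Cenpq footprints were 2.10, 4.09 and 0 FPKM in Het oocytes and 478, 496 and 354 FPKM in KO oocytes. In reads this is 1, 1 and 0 against 126, 184 and 137, so the KO values rest on ample counts and the Het values are near the limit of detection. Cenpx footprints were 150, 345 and 64.4 FPKM in Het and were listed at 0 in all 3 KO libraries. These Het values rest on 6, 7 and 1 reads, and 1 read was worth 45.4, 32.1 and 30.8 FPKM in the KO libraries. The opposite movement of the pair therefore rests on 2 against 447 reads in all for Cenpq and on 14 against 0 reads for Cenpx. Its mRNA, at 49.1 and 142 FPKM, was still present in KO oocytes.

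Cenpk footprints were 7.03, 0 and 0 FPKM in Het and 63.7, 94.6 and 49.7 FPKM in KO, in the same direction as its mRNA. Footprints of Cenpm and Cenpl did not separate the genotypes in this way: Cenpm measured 0, 41.8 and 10.7 FPKM in Het and 22.6, 0 and 10.2 FPKM in KO, although its mRNA rose. Cenpl footprints reached 3.02, 2.97 and 0 FPKM without the KO and 16.4, 3.87 and 1.86 FPKM with it, from at most 6 reads a library. The groups overlapped for both.

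The abundant members kept high footprints in both genotypes. Cenpa stood at 812, 197 and 251 FPKM in Het and at 528, 567 and 479 FPKM in KO, with the first Het library above all others. Cenph stood at 678, 484 and 441 FPKM in Het and at 507, 903 and 441 FPKM in KO. Neither gene separated the genotypes. Cenpn had 676, 816 and 436 FPKM in Het and 367, 337 and 412 FPKM in KO, every KO library below every Het library. Cenpo, its groups overlapping, ran from 120, 179 and 77.7 FPKM in Het to 46.1, 107 and 15.7 FPKM in KO. Cenpi stayed at a few FPKM in both genotypes, 1.22 to 6.36 in Het and 1.52 to 4.76 in KO, with at most 9 reads a library.

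**Figure D2:**
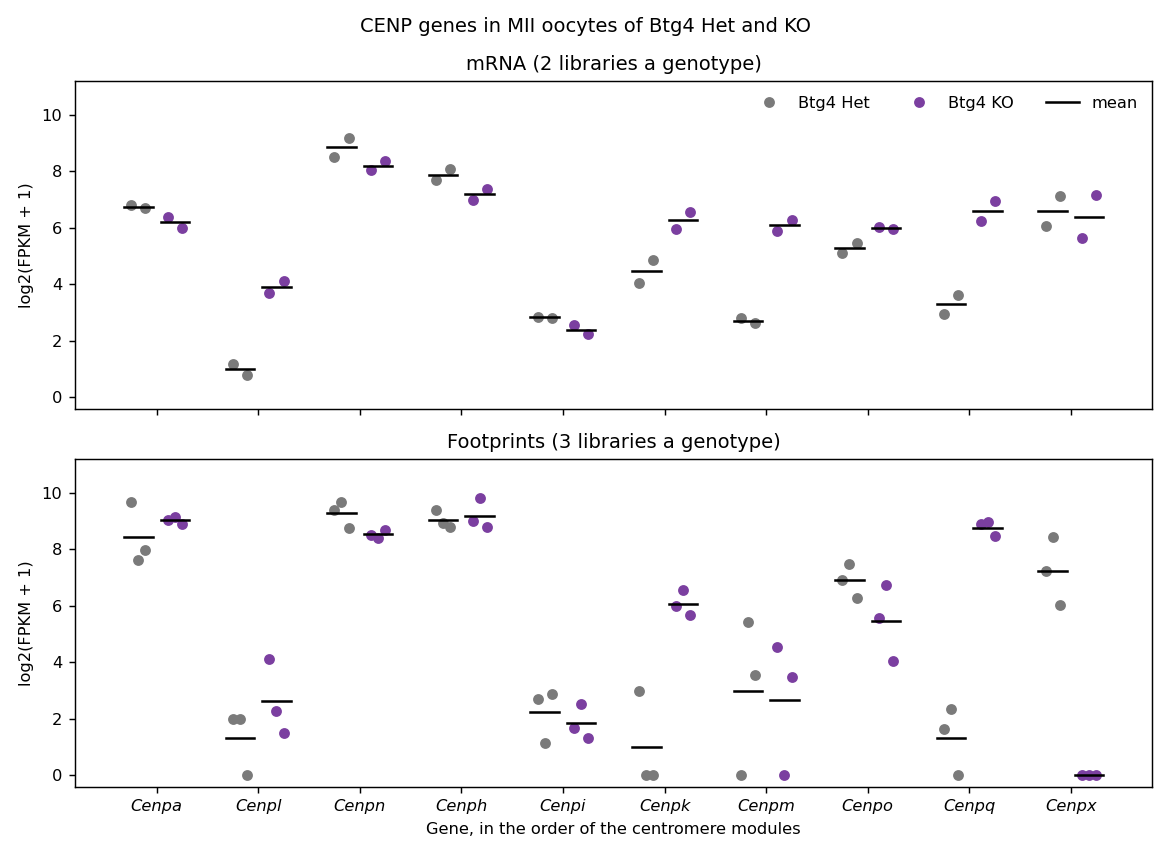
The 10 genes in MII oocytes labelled Btg4 Het (grey) and Btg4 KO (purple), as log2(FPKM + 1) on the vertical axes, with mRNA above and footprints below. Each point is 1 library and bars mark means. Cenpq is higher in KO in both panels, and Cenpx is listed at 0 in all 3 KO footprint libraries with overlapping mRNA. Cenpl, Cenpm and Cenpo (higher in KO) and Cenpa, Cenph and Cenpi (lower in KO) are separated in mRNA only.

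The ratio of mean footprints to mean mRNA, a measure of ribosome loading per polyadenylated mRNA captured, set the genes apart further. Whether capture of mRNA by its tail differed between the genotypes was not tested, and it enters both this ratio and the mRNA differences. Over 7382 genes its median was 1.20 in Het and 1.29 in KO. Cenpq moved from 0.228 to 4.50, Cenpk from 0.107 to 0.893, Cenpa from 3.94 to 7.17 and Cenph from 2.24 to 4.22. Ratios were lower in KO for Cenpm (3.12 to 0.162), Cenpo (3.27 to 0.893) and Cenpl (1.96 to 0.519), and Cenpx went from 1.82 to a value of 0. Cenpn (1.36 and 1.26) and Cenpi (0.710 and 0.657) were similar in both genotypes. Of the 4 genes with at least 1.80 in the log2 mRNA difference, the ratio was higher in KO for Cenpq and Cenpk and lower for Cenpm and Cenpl. Several of these ratios rest on 1 library or few reads: Cenpk had footprints above 0 in 1 Het library, 1 Het library (41.8 FPKM) carried most of the Cenpm mean, and Cenpl had 3 reads in Het and 9 in KO. The Het ratio of Cenpq rests on 2 footprint reads, and the ratios of Cenpx rest on 14 reads in Het and 0 in KO. On the log2 scale of the interaction the KO minus Het difference in efficiency of Cenpm, -3.67, ran from -5.16 (without Het footprint replicate 1) to -2.33 (without KO footprint replicate 2) and was -2.45 without Het footprint replicate 2. That of Cenpl, -1.60, ran from -2.34 (without KO footprint replicate 1) to -1.04 (without KO footprint replicate 3). The Cenpa difference, 1.16, was 1.78 without Het footprint replicate 1, its highest library, and 0.76 without Het footprint replicate 2. That of Cenph, 0.86, was 0.55 without KO footprint replicate 2.

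Poly(A) tails were listed in the FGO library for 9 of the 10 genes, all but Cenpi. They ran from 45.2 nucleotides for Cenpq to 78.5 for Cenpl, with a median of 52.5 beside 54.1 over 6353 genes. Cenpa (48.7), Cenpn (58.0), Cenph (58.8), Cenpk (52.5), Cenpm (51.2), Cenpo (48.2) and Cenpx (57.9) lay between. FGO tails ran from 48.2 to 58.8 nucleotides in the 4 genes with a stage ratio of 1 or more and from 45.2 to 57.9 in the 4 with a ratio of -1 or less, so the ranges overlapped.

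At MII the tail libraries were sparse, and none of the 10 had a value among the 229 genes of the wild-type MII library. In the Btg4 Het library Cenpn had 178 nucleotides, longer than 97.3% of its 598 genes, and Cenpx had 24.7, longer than 1.34% of them. Against FGO the first was longer and the second shorter, and 71.0% of 580 genes were longer in Het. In the second KO library Cenpn had 111 nucleotides, Cenpq 94.6 and Cenpo 20.1, beside a median of 43.1 over 1416 genes, of which 35.8% of those with an FGO value were longer than there. In the first KO library only Cenpx had a value, 24.8 nucleotides, beside a median of 42.4 over 867 genes, with 32.6% longer than in FGO. In the authors' merged KO column Cenpn was at 125 nucleotides, Cenph at 112, Cenpq at 103, Cenpx at 28.8 and Cenpo at 26.5. Against FGO, the KO values of Cenpn, Cenph and Cenpq were longer and those of Cenpo and Cenpx shorter, and 37.2% of 2067 genes were longer in that column. For Cenpx the tails in Het and in the first KO library were 24.7 and 24.8 nucleotides, both under its FGO tail. They were longer than 1.34% of the Het genes and 14.6% of the genes of that KO library. For Cenpn the KO tails, 111 nucleotides in the second library and 125 in the merged column, were under the Het tail of 178. Medians over all listed genes were lower as well, 43.1 and 43.2 nucleotides there against 73.4 in Het. Cenpn was longer than 92.9% and 95.1% of genes there and 97.3% in Het. A shortening particular to Cenpn can therefore not be read from these values. Reads per gene are not in the table, so these single values have no error.

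**Figure D3:**
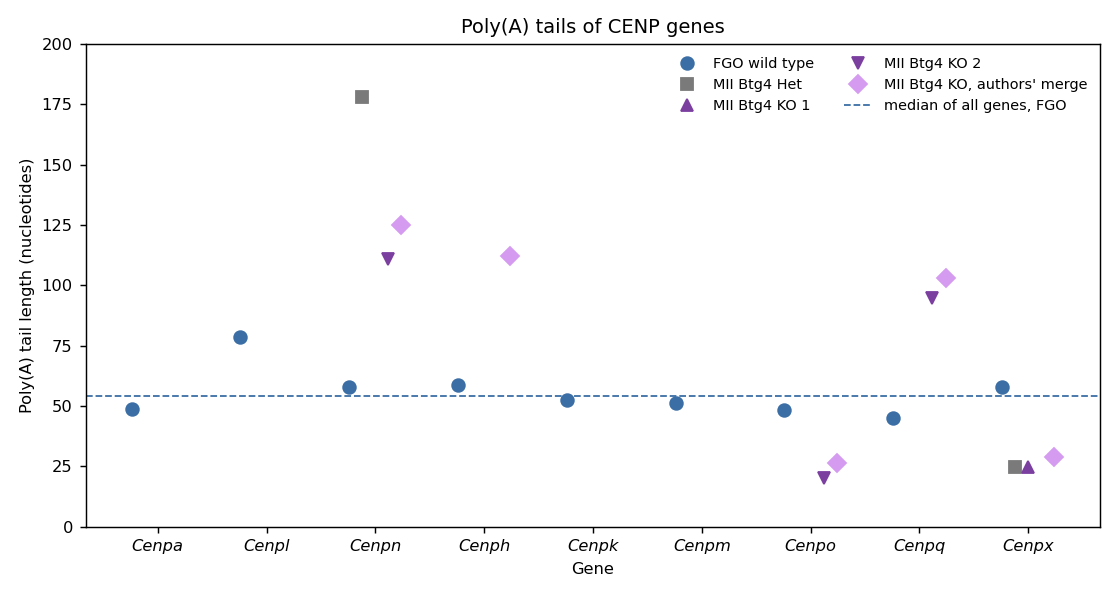
Poly(A) tail length in nucleotides (vertical axis) of the 9 genes with a value. Each point is the deposited value of 1 library or of the authors' merged KO column, and the dashed line is the FGO median of all genes (54.1). FGO tails lie together between 45.2 and 78.5 nucleotides, and MII tails are long for Cenpn, Cenph and Cenpq and short for Cenpo and Cenpx.

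The single-oocyte and Btg4 libraries are separate sets, so the genes can be placed by both. Of the genes with a stage ratio of -1 or less, Cenpk and Cenpm rose in KO mRNA, Cenpq was higher with no test, and Cenpx was not. None of the 4 genes with a ratio of 1 or more (Cenpa, Cenpn, Cenph and Cenpo) passed. Between them, Cenpl rose and Cenpi did not pass. Over all genes, KO mRNA rose for 38.9% of those with a stage ratio of -1 or less, for 17.5% of those between and for 3.60% of those with a ratio of 1 or more. These shares cover genes averaging 1 FPKM or more in single oocytes, which leaves out Cenpi and keeps only Cenpl between. The CENP genes with a ratio of -1 or less and those between are thus too few to be ordered.

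The other kinetochore genes, 36 from 4 lists of other CENP, CENP-A deposition, outer kinetochore and FANCM partner genes, followed the order of the shares over all genes. In KO mRNA 12 of 34 tested rose and 0 fell by limma (15 and 3 at an unadjusted p below 0.05), with a median log2 difference of 0.36, beside 18.9% and 0.62% of all genes. Leaving out any 1 library, 7 to 11 rose, 8 did with libraries scaled to a common median, 5 with no filter, and quantile normalization gave 7 higher and 4 lower. Among those averaging 1 FPKM or more in single oocytes, of the 11 with a stage ratio of -1 or less, 7 rose (Cenps, Itgb3bp, Oip5, Ska3, Spc25, Zw10 and Zwint), 3 of the 11 between -1 and 1 did (Cenpt, Ska1 and Spdl1), and 0 of the 10 with a ratio of 1 or more did, where all 10 log2 differences were below 0 (median -0.62). The other 2 that rose, Mis18a and Faap24, were below that level in single oocytes, and with them 5 of 13 between -1 and 1 rose. Of the 12, Oip5, Cenpt and Faap24 averaged under 1 FPKM of mRNA in Het (0.511, 0.618 and 0.934). Only a higher KO level could bring these genes past the mRNA filter, so their calls, which the counts above include, are no support for a rise. Among the 33 genes with at least 1 FPKM in single oocytes, the highest stage ratios were those of the histone chaperone Rbbp7 (5.37), the microtubule-binding Ndc80 complex subunit Nuf2 (4.04) and the centriole gene Cenpj (3.78). Itgb3bp, which encodes CENP-R (-3.55), the Ndc80 complex subunit Spc25 (-2.15) and Cenps (-2.10) had the lowest. Itgb3bp was above 0 in only 5 of 18 FGO oocytes and in 0 of 20 MII oocytes, so its ratio rests on few oocytes.

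**Figure D4:**
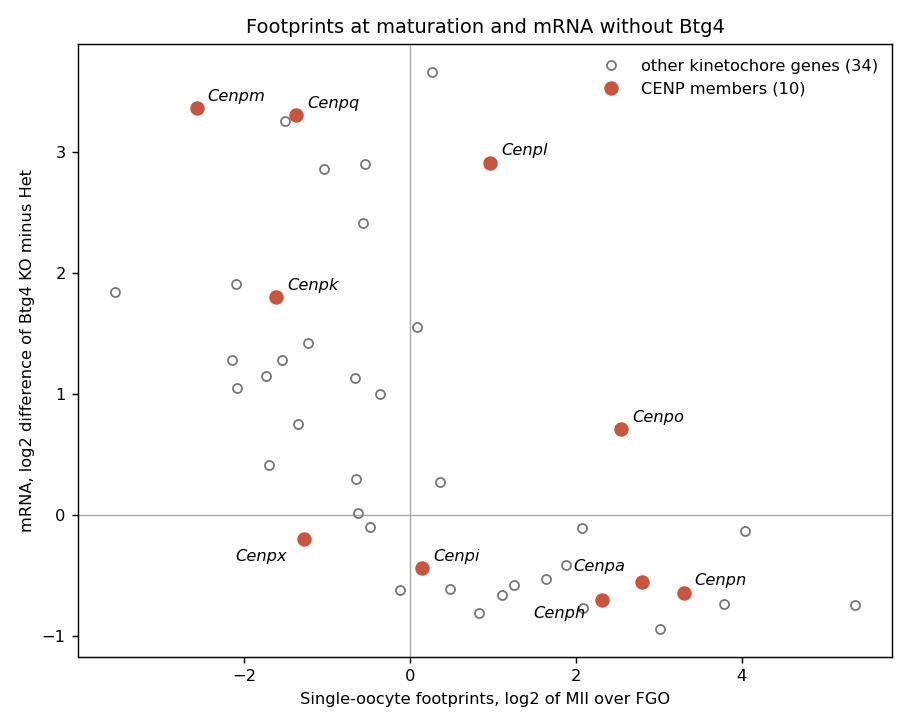
Horizontal axis, log2 ratio of MII to FGO footprints in single oocytes. Vertical axis, log2 difference of Btg4 KO minus Het in mRNA; filled points are the 10 CENP genes and open points are 34 other kinetochore genes. Points at the left lie mostly above 0 and points at the right mostly below 0, with Cenpx (-1.28, -0.20) low at the left and Cenpo (2.55, 0.71) high at the right.

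Partners of the described genes included several of the 12. Cenps, which pairs with Cenpx, had 39.7 ± 6.27 FPKM of mRNA in Het and 164 ± 89.1 FPKM in KO (SD, n = 2 each; log2 difference 1.91, SE 0.41, limma adjusted p = 0.0137). Its footprints were 25.8 ± 27.7 and 10.4 ± 3.31 FPKM (SD, n = 3 each) and overlapped, so neither gene of the pair showed more footprints in KO. Cenpt, of the same module, had 0.618 ± 0.285 FPKM of mRNA in Het and 3.70 ± 0.207 FPKM in KO (SD, n = 2 each; log2 difference 1.55). It passed the mRNA filter only through its KO level, so its mRNA test is no support for a rise. Its footprints lay the other way, 4.82 ± 2.48 FPKM in Het and 0.385 ± 0.666 FPKM in KO (SD, n = 3 each), with every KO library below every Het library, but did not pass (log2 difference -2.08, limma adjusted p = 0.183). Its efficiency difference of -3.63 did not pass either (limma adjusted p = 0.0799). Faap24, which acts with FANCM, had 0.934 ± 0.552 FPKM of mRNA in Het and 13.2 ± 1.43 FPKM in KO (SD, n = 2 each; log2 difference 2.90). Like Cenpt, it passed the mRNA filter only through its KO level, so its test is no support for a rise. Itgb3bp also rose (log2 difference 1.84, limma adjusted p = 0.0417), and this call was lost with 6 of the 9 alternatives.

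Of the genes that license CENP-A deposition, Mis18a mRNA rose from 11.5 ± 3.67 to 156 ± 38.5 FPKM (SD, n = 2 each), the greatest log2 difference among these lists at 3.66 (SE 0.35, limma adjusted p = 0.000631). Oip5 had a log2 difference of 1.28, but it passed the mRNA filter only through its KO level, so its test is no support for a rise.

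At the outer kinetochore 6 of 16 genes rose in mRNA, beside the 18.9% of all genes: Ska3 (log2 difference 3.25), the Knl1 partner Zwint (2.86), Ska1 (2.41), Zw10 (1.42), Spc25 (1.28) and Spdl1 (1.13). Without KO mRNA replicate 2 the mRNA calls of Cenps (adjusted p = 0.0820), Itgb3bp (0.0515), Oip5 (0.111), Spc25 (0.336) and Spdl1 (0.235) were lost, and without KO mRNA replicate 1 that of Zw10 (0.223) and again that of Spdl1 (0.0866). Without Het mRNA replicate 1 those of Itgb3bp (0.171) and Spdl1 (0.134), and without Het mRNA replicate 2 those of Oip5 (0.0513) and Zw10 (0.0881), were lost. Scaling to a common median also ended the calls of Cenps (0.0537), Itgb3bp (0.0833), Spc25 (0.0806) and Spdl1 (0.0980), and quantile normalization those of Itgb3bp (0.114), Oip5 (0.0628), Spc25 (0.0843), Zw10 (0.0515) and Spdl1 (0.0771). With no filter those of Cenpt (0.0722), Cenps (0.0997), Itgb3bp (0.173), Oip5 (0.0958), Spc25 (0.101), Zw10 (0.100) and Spdl1 (0.0872) were lost, and the calls of Mis18a, Zwint, Ska1 and Ska3 were kept in all of these alternatives. Ska3 and Spdl1 also rose in footprints, by 2.87 (limma adjusted p = 0.0360, with the block 0.0536) and 3.18 (limma adjusted p = 0.0168, with the block 0.0294). They made 2 of 35 tested kinetochore genes higher and 0 lower in footprints by limma (6 and 3 at an unadjusted p below 0.05). Without any 1 of the 3 KO footprint libraries no gene of the whole table passed. Both calls were also lost without Het footprint replicate 3 (adjusted p = 0.0640 for Ska3 and 0.0501 for Spdl1), and that of Ska3 without Het footprint replicate 2 (0.0668). In footprint efficiency, the genotype by assay interaction, 0 of 33 tested kinetochore genes were called by limma (3 higher and 1 lower at an unadjusted p below 0.05), beside 0.853% of all genes called higher and 0.447% called lower.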

How the data were processed

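Footprint and mRNA values are FPKM, deposited by the authors as tables of all genes, and tail lengths (another unit, nucleotides per gene, with 0 for no value) were deposited as 1 table. The submitters' processing notes name STAR 2.5.3a and Bowtie2 2.2.2 (aligners), Cufflinks 2.2.1, the trimmers cutadapt 1.14 and Trim Galore 0.4.2, and mm9 beside hg19 as builds. FPKM is relative to each library's total and shows no change of total RNA, and the mRNA libraries hold polyadenylated RNA only, per the labels. In bulk samples fewer cells and less RNA per cell cannot be told apart. Exact repeats of rows (231) were dropped.

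Values were tested as log2(FPKM + 1) with limma 3.58.1 (R 4.3.3, trend, two-sided, Benjamini-Hochberg over all genes averaging 1 FPKM or more, adjusted p under 0.05), with genotype as the only term, and with a genotype by assay interaction for efficiency. Scripts were tested on simulated data. Alternatives were a pseudocount of 0.1, no filter, median scaling, quantile normalization, the replicate block and leaving out libraries. Same-numbered footprint libraries, numbered in the labels, deviated together (correlations 0.255, 0.422 and 0.162), and other numbers gave -0.319 to 0.0977. Deviations were taken from group means, which lowers the values of other numbers, so these do not settle whether the numbers pair the libraries. The main fits used no block, and the blocked value is given where it changes a call. With the block 241 genes were higher and 26 lower in footprints, against 274 and 28. Whole reads were recovered from the FPKM steps of values under 12 reads. Promoters come from RefSeq (GRCm38.p6), matched by symbol for 10 of 10 genes, and coordinates of the authors' build were not used.

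The genes, the 4 kinetochore lists and the tests were chosen with earlier results of these data known. Named genes are the 10 CENP genes, Btg4, every listed kinetochore gene past a threshold, the 3 highest and 3 lowest stage ratios, and the 5 nearest profiles of Cenpq and of Cenpx. 1 gene of the lists is not reported here. Tails were not tested, since 3 of the 4 groups have 1 library.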

Additional observations from a re-analysis of the deposited data

How the results depend on the processing

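With the replicate number as a block, the mRNA fit called 3033 genes higher and 1553 lower in KO against 1677 and 55 without it, 3 of the tested CENP genes lower against 0 (Cenph, Cenpn and Cenpa, adjusted p = 0.0130, 0.0244 and 0.0339), Cenpo higher (0.0213), Btg4 lower (0.00812), and 9 other kinetochore genes lower against 0, with 16 higher against 12. Same-numbered mRNA libraries deviated together (correlation 0.627 for both), but 2 pairs are too few to take the numbers as a pairing. In footprint efficiency the block gave 27 genes higher against 63. Of the 2 footprint calls of other kinetochore genes, that of Ska3 was lost, leaving 1, with the block, with no filter, with quantile normalization and with a pseudocount of 0.1. With no filter the mRNA counts were 555 higher and 5 lower, with 5 other kinetochore genes higher against 12. The footprint counts were 145 higher and 12 lower against 274 and 28, and the efficiency counts 27 higher and 12 lower against 63 and 33. Quantile normalization gave 657 genes lower in mRNA (63.0% of calls higher against 96.8%), 7 other kinetochore genes higher and 4 lower, and 155 genes higher in footprints. Median scaling gave 96 genes lower in mRNA, 45 lower in footprints and 126 higher in efficiency. A pseudocount of 0.1 gave 177 genes higher in footprints. The cause of these shifts was not tested. Scaling moved the median mRNA difference of all genes from 0.14 to 0.04 (median scaling) and -0.21 (quantile), and no tested call of a CENP gene or other kinetochore gene changed direction under any alternative.

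Leaving out 1 library at a time, the mRNA counts ran from 1139 to 1621 higher and 22 to 270 lower, with 2 to 3 CENP genes and 7 to 11 other kinetochore genes higher. Footprint counts ran from 0 to 260 higher and 0 to 14 lower, with 0 to 3 other kinetochore genes higher. Efficiency counts ran from 0 to 156 higher and 0 to 47 lower, with 0 other kinetochore genes higher and 0 to 1 lower (1 without Het footprint replicate 3). A footprint fit with 2 KO libraries called 0 genes, though 879 to 970 were higher at an unadjusted p below 0.05. A fit that leaves 1 mRNA library in a genotype assumes that it varies like the others. In single oocytes, leaving out 1 oocyte gave 4 to 5 genes at a ratio of 1 or more and 4 at -1 or less. Without oocytes that list hemoglobin 3 genes were at -1 or less, and with a pseudocount of 0.1 5 genes were at 1 or more. Medians in place of means moved the ratios of Cenpm, Cenpq and Cenpx to -5.09, -4.07 and -7.00. Depth limits Cenpl and Cenpi in all footprints and Cenpx in the Btg4 footprints.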

Other observations

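The genes whose profile over 6 groups (FGO and MII single oocytes, and Het and KO footprints and mRNA) lay nearest to that of Cenpq were Tctex1d2, Thap1, Calm2, Sptssb and Btg2, at centred log2 distances of 1.16 to 1.95 among 7382 genes. Mean footprints of Thap1 were 3.88 FPKM in Het and 340 FPKM in KO, and those of Calm2, a calmodulin gene, were 76.3 and 2002 FPKM. Footprints of Tctex1d2, Sptssb and Btg2 were listed at 0 in Het and had means of 122, 138 and 99.4 FPKM in KO. The nearest of the other CENP genes described here was Cenpk, at rank 35 with a distance of 2.81.

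Nearest to Cenpx were Dpm2, a subunit of dolichol-phosphate mannose synthase, Scand1, the RNA-binding gene Lsm2, Gfer and the mitochondrial fission gene Fis1, at distances of 2.43 to 3.02. Dpm2, Scand1, Gfer and Fis1 also had footprints listed at 0 in KO, with means of 81.9, 47.6, 14.4 and 24.9 FPKM in Het and mRNA means of 26.3, 18.0, 16.9 and 16.3 FPKM in KO. Lsm2 kept 17.9 FPKM of footprints in KO against 235 FPKM in Het. The nearest of the other CENP genes was Cenpm, at rank 993 with a distance of 5.69. These neighbours were found with the KO footprints included, so they describe the profiles and test nothing.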
